A study of Mus musculus with 6 samples.

Results

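The 10 genes described here encode matrix metalloproteinases (Mmp2, Mmp9, Mmp11, Mmp14), tissue inhibitors of metalloproteinases (Timp1, Timp2, Timp3) and proteins that cells lay down in the matrix or use to signal through it (Sparc, Fn1, Thbs1). They were chosen by gene symbol, 10 of the 8949 genes named on the array. Liver RNA came from 6 male wild-type C57BL/6J mice aged 8 to 10 weeks, each on an array of its own. For 3 of them the liver was taken 1 day after surgery that tied and cut the common bile duct (bile duct ligation, BDL), which blocks bile flow. The other 3 mice had the abdomen opened without ligation (sham). The BDL mice carry the numbers 1, 12 and 3 in the labels, and the sham mice 1, 2 and 3. The comparison asked which transcripts of whole liver differed 1 day after ligation.

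Metalloproteinases are zinc enzymes, made as inactive precursors, that cut collagens, fibronectin and other matrix proteins outside the cell. The membrane-bound enzyme Mmp14 activates the Mmp2 precursor with the help of Timp2, and each TIMP binds active enzymes one to one. In injured liver, stellate cells and the myofibroblasts that arise from them are known sources of TIMP1, MMP2 and matrix, and neutrophils and macrophages are known sources of MMP9. Matricellular proteins such as Sparc and thrombospondin 1 are secreted into the matrix and alter adhesion and growth factor activity without forming its scaffold.

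Each gene was read by 1 to 3 probe sets, each a collection of short oligonucleotides that together give a transcript 1 signal on a linear scale. A floor of 152.7, below which 25% of the deposited signals lie, replaced any lower signal. The arrays shared a 2% trimmed mean near 1501, but sham 1 stood apart at low signals: 12.5% of its probe sets lay at or under the floor, against 26.1% to 27.9% on the BDL arrays and 24.4% and 31.3% on sham 2 and sham 3. The labelled tissue was checked with 9 hepatocyte marker genes, all above the floor on some array. Their summed signal ranged from 524541 to 723749 in BDL mice and from 414978 to 651842 in sham mice.

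The promoters of Sparc and Mmp11 are shown because, among members with a probe set of their own, these genes had the largest difference in each direction. Each line gives the 250 bases before the start site, from RefSeq on GRCm38.p6, with capitals marking matches to the motifs searched. The Sparc window is chr11:55420081-55420330 and the Mmp11 window is chr10:75932503-75932752, both read from the minus strand.
Sparc: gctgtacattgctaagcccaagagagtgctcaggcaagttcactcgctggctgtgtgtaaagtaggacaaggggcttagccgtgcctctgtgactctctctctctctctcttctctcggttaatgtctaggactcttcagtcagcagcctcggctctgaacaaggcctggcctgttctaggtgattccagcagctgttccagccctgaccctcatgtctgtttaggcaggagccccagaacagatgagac
Mmp11: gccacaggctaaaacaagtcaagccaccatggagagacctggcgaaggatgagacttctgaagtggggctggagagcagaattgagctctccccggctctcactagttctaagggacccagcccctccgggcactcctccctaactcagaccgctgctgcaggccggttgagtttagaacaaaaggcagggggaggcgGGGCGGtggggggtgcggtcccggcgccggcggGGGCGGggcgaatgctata
Motifs were sought on both strands up to 50 bases past the start site, and their background is the share of 32851 RefSeq windows of the same length. The TATA box was searched as TATAAA, which 13.6% of windows held. The AP-1 motif was searched as TGANTCA, held by 7.81%. The STAT motif was searched as TTCNNNGAA, held by 8.3%. The Sp1 motif was searched as GGGCGG, held by 35.7%. The Sparc window held 0 matches to the 4 motifs. The Mmp11 window held 4 matches to the Sp1 motif, beginning at bases -52, -19, 3 and 44 from the start site, and 0 to the other motifs. Windows were found for 6 of the 10 members. In the others, Timp1 and Timp2 held 1 match each to the Sp1 motif, Timp3 and Mmp14 held 2 each, and none held any of the other motifs. The letters of a motif describe the sequence only.

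Of the 10 probe sets that could be tested, 0 passed the test between BDL and sham livers after adjustment over the whole array; they cover 8 of the genes and the probe set shared by Pald1 and Thbs1, and Mmp9 was not tested. Sparc, the protein osteonectin, and a probe set shared by Pald1 and Thbs1 had higher signals in every BDL mouse than in any sham mouse. Mmp11 had a lower mean in BDL mice. Timp1, Mmp14 and Fn1, whose signals were far above the floor on all 6 arrays, differed little in their means. The 10 genes had 15 probe sets, 14 named by 1 symbol. Of these 15, 10 were tested because at least 3 arrays exceeded the floor, and 7 exceeded it on all 6 arrays.

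With limma, 0 of the 10 tested member probe sets reached an adjusted p of 0.05, where 0% of all 9542 tested probe sets did. The lowest adjusted p of a member was 0.667. An unadjusted p under 0.05 was seen for 3 of these probe sets, against 5.78% of all probe sets: 2 were higher in BDL (3.4% of all) and 1 lower (2.39% of all). That count of 3 was 1 without BDL 3 and 4 without BDL 1. Groups did not overlap for 2 of the 10, both higher in BDL, against 10.6% of all probe sets in either direction and 6.32% in that direction; 0 were fully lower, against 4.32% of all. The median log2 difference, BDL minus sham, was -0.06 over the member probe sets tested and -0.01 over all tested probe sets, and 5 of the 10 were positive, against 48.8% of all. The sign of that member median turned to positive without BDL 1 (0.17) and without sham 1 (0.08). Without sham 3 the member median was -0.20. Since the members were picked with results of these arrays known, the counts are a description.

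**Figure D1:**
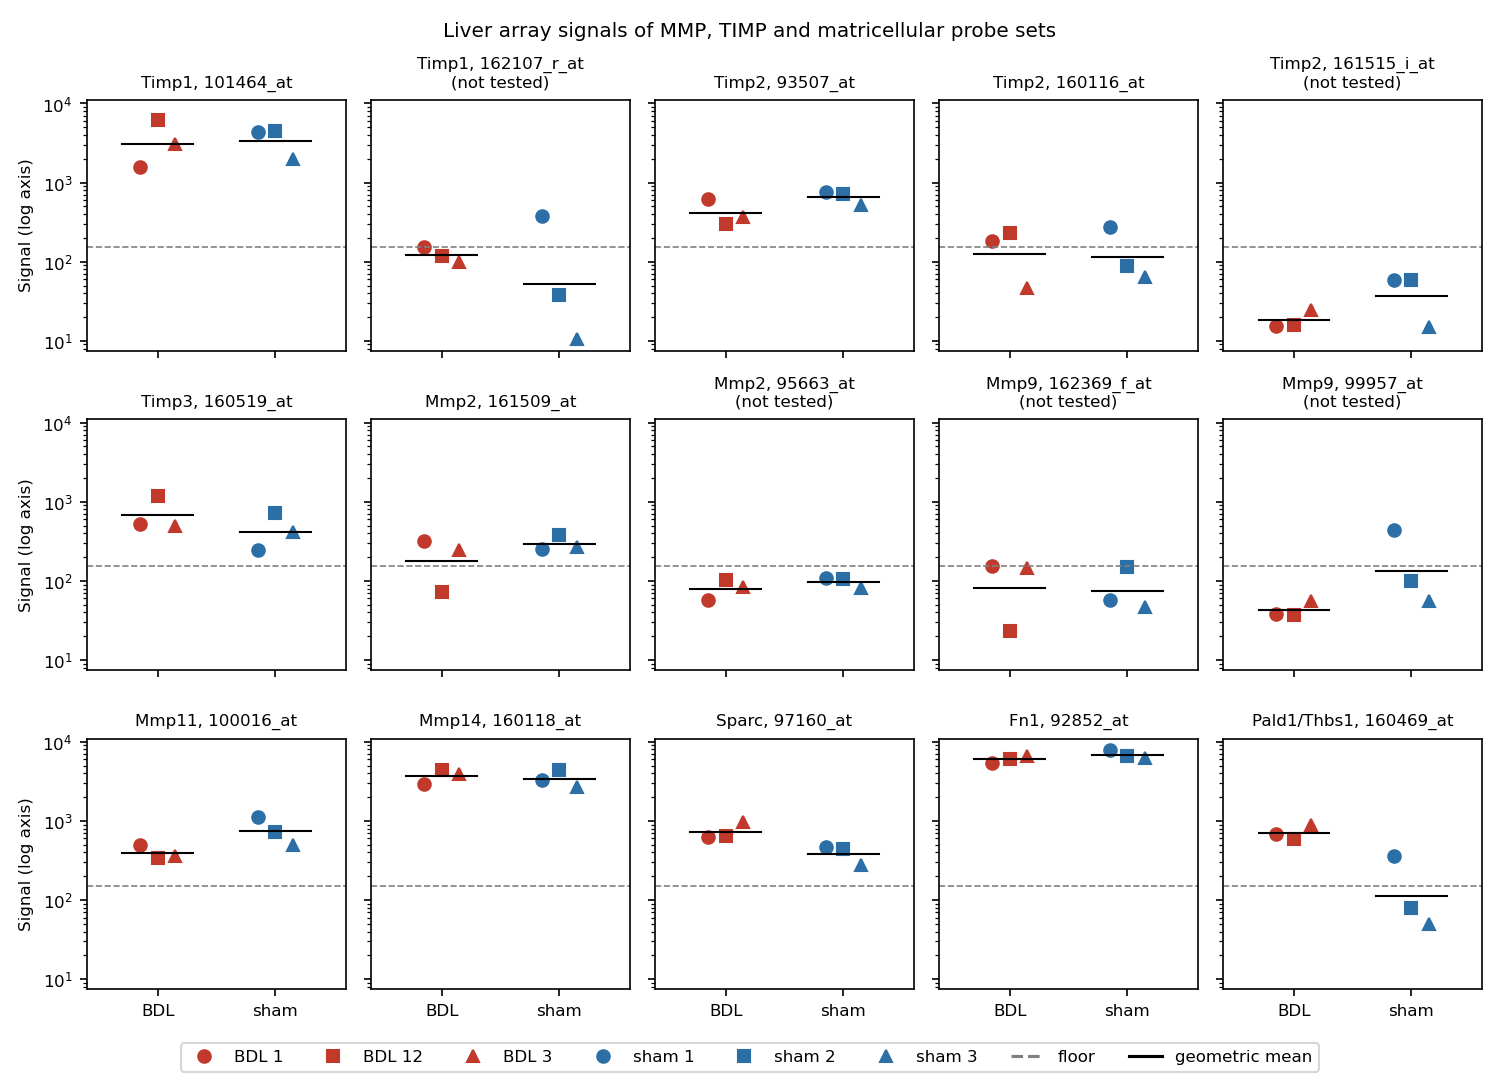
Signal of each of the 15 probe sets on each array (log axis), BDL mice left and sham mice right; black bars are geometric means of the signals without a floor, and the dashed line is the floor of 152.7. Sparc and the Pald1/Thbs1 probe set have all 3 BDL points above all 3 sham points. The 5 probe sets not tested, of Timp1, Timp2, Mmp2 and Mmp9, lie mostly near or under the floor.

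Timp1, a secreted inhibitor of most metalloproteinases, had signals of 1559.8, 6182 and 3067 in BDL mice 1, 12 and 3, against 4328, 4472 and 2007 in sham mice 1, 2 and 3 (probe set 101464_at). The BDL range enclosed the sham range, with the highest and the lowest of the 6 values both in BDL mice. Mean signals were 3603 ± 2357 in BDL mice and 3602 ± 1383 in sham mice (SD, n = 3 each). The log2 difference was -0.13 (SE 0.54; limma adjusted p = 0.976), with a 95% interval of -1.35 to 1.09. In folds that interval runs from 0.393 to 2.12, so the arrays did not resolve changes within that range. Its sign turned to positive without BDL 1 (0.36), without sham 1 (0.046) and without sham 2 (0.069), and it was -0.63 without BDL 12. The other Timp1 probe set, 162107_r_at, was above the floor only on BDL 1 (153.5) and sham 1 (378.9) and was not tested.

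Timp2, the inhibitor that also helps Mmp14 activate Mmp2, was read by 3 probe sets that did not give one answer. Probe set 93507_at had signals of 620.7, 303.8 and 369.4 in BDL mice, against 767.4, 727.5 and 528.4 in sham mice. BDL 1 lay above sham 3, so the groups overlapped, and the log2 difference was -0.69 (SE 0.35; limma adjusted p = 0.832), 1.62-fold lower in BDL. Probe set 160116_at had 182.9, 232.1 and 46.7 in BDL mice, against 270.8, 87.1 and 63.3 in sham mice. BDL 3, sham 2 and sham 3 were under the floor, and the difference was 0.01 (SE 0.34; limma adjusted p = 0.997). The third, 161515_i_at, was under the floor on all 6 arrays.

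Timp3, the inhibitor that binds to the matrix itself, had signals of 520.6, 1199.4 and 499.1 in BDL mice, against 247.3, 728.9 and 409.0 in sham mice. The highest value was in BDL 12 and the lowest in sham 1, but sham 2 exceeded the other BDL mice. The log2 difference was 0.69 (SE 0.49, 95% interval -0.42 to 1.81; limma adjusted p = 0.839), 1.62-fold higher in BDL. It was 0.28 without BDL 12 and 0.31 without sham 1.

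Mmp14, the membrane-bound metalloproteinase, had signals of 2937, 4365 and 3967 in BDL mice, against 3278, 4375 and 2663 in sham mice. The sham range enclosed the BDL range, and the log2 difference was 0.14 (SE 0.32, 95% interval -0.59 to 0.87; limma adjusted p = 0.951). Leaving out sham 3 gave -0.03.

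Mmp2, gelatinase A, the enzyme that Mmp14 activates, had signals of 323.3, 71.4 and 245.9 in BDL mice, against 250.1, 376.6 and 270.9 in sham mice (161509_at). BDL 12 alone was under the floor, and without it the log2 difference of -0.36 (SE 0.36; limma adjusted p = 0.880) was -0.06. The other Mmp2 probe set, 95663_at, was under the floor on all 6 arrays, at 58.1 to 102.4 in BDL mice and 82.1 to 107.8 in sham mice.

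Mmp9, gelatinase B, was near or under the floor. Probe set 99957_at had signals of 38.3, 36.8 and 56.0 in BDL mice, against 436.1, 100.1 and 55.7 in sham mice, so only sham 1, the array with raised low signals, exceeded the floor. Probe set 162369_f_at had 154.0, 23.4 and 144.6 in BDL mice, against 57.5, 149.5 and 46.1 in sham mice. Neither was tested, and no fold is given. Of 11 neutrophil marker genes, all were on the array and above the floor on some array, and their summed signal was 62785 to 110117 in BDL mice and 49371 to 70264 in sham mice, most of it from Lcn2, which hepatocytes also make. The 10 markers without Lcn2 summed to 7109, 6386 and 9111 in BDL mice, against 12027, 7489 and 5111 in sham mice, so the groups overlapped. Of the 11 neutrophil markers tested, 4 were positive, with a median log2 difference of -0.14. At a limma unadjusted p under 0.05, 1 was higher and 0 lower. The higher one was S100a9 (1.49, SE 0.59, limma adjusted p = 0.832), with overlapping groups. Its signals were 584.9, 304.1 and 1781.8 in BDL mice, against 191.5, 239.2 and 311.3 in sham mice.

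Mmp11, stromelysin 3, an enzyme activated inside the cell by furin, had signals of 498.9, 344.4 and 363.8 in BDL mice, against 1118, 722.3 and 496.1 in sham mice. Only BDL 1 and sham 3 overlapped. The log2 difference was -0.89 (SE 0.37, 95% interval -1.73 to -0.06; limma adjusted p = 0.832), 1.86-fold lower in BDL. Of all tested probe sets, 360 had a more negative difference. Without sham 1, which held the highest value, the difference was -0.59, and without sham 3 it was -1.18.

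Sparc, a collagen-binding glycoprotein made by stellate, endothelial and other mesenchymal cells, had signals of 627.7, 637.2 and 975.4 in BDL mice, against 466.1, 440.7 and 280.0 in sham mice. The lowest BDL value exceeded the highest sham value. Means were 746.8 ± 198 in BDL mice and 395.6 ± 101 in sham mice (SD, n = 3 each), and the log2 difference was 0.92 (SE 0.34, 95% interval 0.15 to 1.69; limma adjusted p = 0.832), 1.89-fold higher in BDL. Of all tested probe sets, 328 had a larger difference. It stayed positive without any single array, from 0.69 without sham 3 to 1.06 without sham 1.

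Fn1, fibronectin, which hepatocytes secrete into plasma and other cells deposit in the matrix, was the least variable of the 15 probe sets within each group. Its signals were 5321, 6024 and 6678 in BDL mice, against 7884, 6631 and 6300.0 in sham mice. The highest value in either group was 1.26 times the lowest in BDL mice and 1.25 times in sham mice. The log2 difference was -0.21 (SE 0.28, 95% interval -0.84 to 0.43; limma adjusted p = 0.910), with BDL 3 above sham 2 and sham 3.

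Thrombospondin 1, a platelet and stromal protein that can release TGF-beta from its latent form, had no probe set of its own. The array annotation gives probe set 160469_at to both Pald1, which encodes the protein paladin, and Thbs1, so its signal cannot be assigned to either gene. That probe set had signals of 691.1, 589.8 and 891.5 in BDL mice, against 363.8, 78.6 and 49.5 in sham mice. All BDL values lay above all sham values, and sham 2 and sham 3 were under the floor. The log2 difference was 1.81 (SE 0.40, 95% interval 0.89 to 2.73; limma adjusted p = 0.667), 3.50-fold higher in BDL, and 15 of the 9542 tested probe sets had a larger one. Its size depended on the floor, at 1.07 with the floor at the 40th percentile and 2.65 with the floor at the 10th percentile. Platelet marker genes, 5 on the array, gave summed signals of 788 to 851.2 in BDL mice. In sham mice 1, 2 and 3 the sums were 2695, 1212 and 452.6, and 0 of 3 tested were positive.

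**Figure D2:**
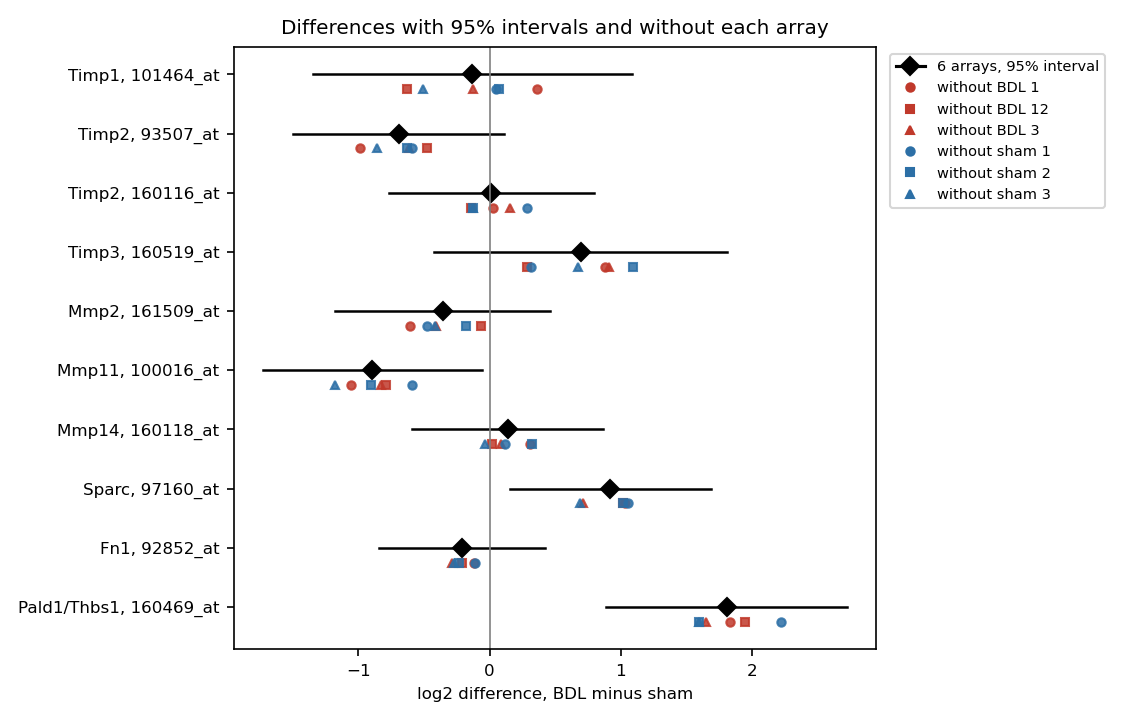
log2 difference (BDL minus sham) of the 10 tested probe sets with limma's 95% interval (black), and the same difference without each array in turn (coloured symbols below). Intervals exclude 0 only for Mmp11, Sparc and the Pald1/Thbs1 probe set, before adjustment over all probe sets; Timp1, Timp2 (160116_at) and Mmp14 change sign when single arrays are left out.

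The members had their high and low values in different mice. BDL 12 had the highest of the 6 Timp1 and Timp3 values, and the lowest values of Mmp2 (161509_at), Mmp11 and Timp2 (93507_at). BDL 3 had the highest values of Sparc and of the Pald1/Thbs1 probe set. Sham 1 held the highest value of 4 of the 10 tested probe sets, against 32.8% of all tested probe sets, and the lowest value of Timp3. Sham 3 held the lowest value of 3 of the 10, against 22.8% of all, and the highest of 0. The lowest value of Timp1 was in BDL 1.

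**Figure D3:**
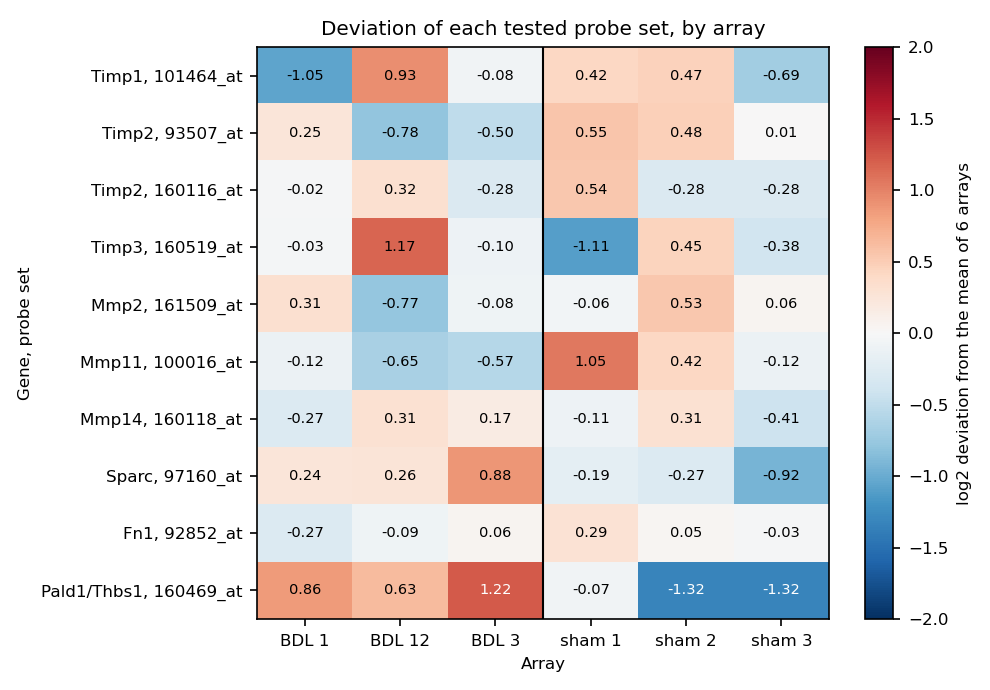
Deviation of each tested probe set from its mean over the 6 arrays, in log2 units after the floor (red higher, blue lower), BDL arrays left of the black line. The Timp1 row runs from -1.05 in BDL 1 to 0.93 in BDL 12, whereas the Fn1 row stays between -0.27 and 0.29.

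Related genes were counted in 6 lists, each gene by its brightest probe set, and 0 genes of any list passed the limma adjusted threshold. Over all 6895 genes tested this way, an unadjusted p under 0.05 was reached by 235 higher and 157 lower genes, 49.2% were positive and the median log2 difference was -0.01. Other metalloproteinases had 22 of 35 entries on the array, and 5 of these were never above the floor. Of the 11 tested, 6 were positive, with a median of 0.09 and 0 higher or lower at an unadjusted p under 0.05. The 3 with the smallest p were Mmp12, a macrophage elastase (0.87, SE 0.43), Adam15 (0.49, SE 0.34) and Adam17, the enzyme that sheds TNF (-0.79, SE 0.60), all with overlapping groups. Mmp12 signals were 446.1, 336.4 and 578.5 in BDL mice, against 151.9, 432.3 and 213.7 in sham mice. The collagenases Mmp8 and Mmp13, named after their values were seen, exceeded the floor on 2 and 3 of 6 arrays.

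Regulators and activators of metalloproteinases had 13 tested genes, 8 of them positive, with a median of 0.11 and 0 past an unadjusted p of 0.05. Spock1, a matrix proteoglycan, differed by 0.83 (SE 0.45). Lcn2, lipocalin 2, which binds MMP9 in human neutrophils and is also made by hepatocytes, differed by 0.63 (SE 0.36), with signals of 55676, 88293 and 101006 in BDL mice, against 37344, 55050.4 and 65153 in sham mice. Tfpi2, a protease inhibitor, differed by -0.44 (SE 0.58), and groups overlapped for all of these.

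Other matricellular genes had 18 tested, 12 of them positive, with a median of 0.39, and at an unadjusted p under 0.05 it held 0 higher and 1 lower. The lower one was Tnc, tenascin C, at 72.8, 75.3 and 44.5 in BDL mice, all under the floor, against 327.2, 224.8 and 202.0 in sham mice. With its BDL signals set to the floor, the estimate was 1.61-fold lower in BDL (log2 difference -0.69, SE 0.30, limma adjusted p = 0.832). The size thus rests on the floor, and Tnc was tested only through its sham signals. Ccn2, connective tissue growth factor, differed by 0.89 (SE 0.48) and Smoc2 by 0.81 (SE 0.48), both with overlapping groups.

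Basement membrane and interstitial glycoproteins and proteoglycans had 27 tested genes, 9 of them positive, a median of -0.22, and 0 past an unadjusted p of 0.05. Lamb1, a laminin chain, differed by 0.86 (SE 0.39), Matn2, matrilin 2, by -0.69 (SE 0.32, all BDL values below all sham values) and Eln, elastin, by 0.70 (SE 0.35). Matrix receptors had 14 tested genes, 5 of them positive, a median of -0.13, and 1 gene in each direction at an unadjusted p under 0.05. Cd63, a tetraspanin that serves as a surface partner of TIMP1 in human cells, differed by 1.89 (SE 0.67). Its signals were 1783, 6541 and 2810.2 in BDL mice, against 574.0, 2319 and 488.0 in sham mice, with sham 2 above BDL 1. Itgb7, an integrin chain of lymphocytes, differed by -1.15 (SE 0.47, groups apart). Itgb1, the integrin chain of the main fibronectin receptor, had signals of 13335, 13713 and 16292 in BDL mice, against 10151, 9804 and 11201 in sham mice, a difference of 0.47 (SE 0.27).

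Of 11 tested cytokines and factors known to induce TIMP or metalloproteinase genes, 7 were positive, with a median of 0.21 and 1 gene in each direction at an unadjusted p under 0.05. Pdgfb, a platelet-derived growth factor chain, differed by -1.53 (SE 0.45, limma adjusted p = 0.830), with all BDL values below all sham values. Its signals were 294.4, 153.0 and 120.7 in BDL mice, against 969.2, 484.0 and 351.2 in sham mice. BDL 3 was under the floor and BDL 12 just above it, so the size rested partly on the floor. Ets2, a transcription factor, differed by 1.16 (SE 0.40) and Fos, an AP-1 subunit, by 0.74 (SE 0.43), both with overlapping groups.

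**Figure D4:**
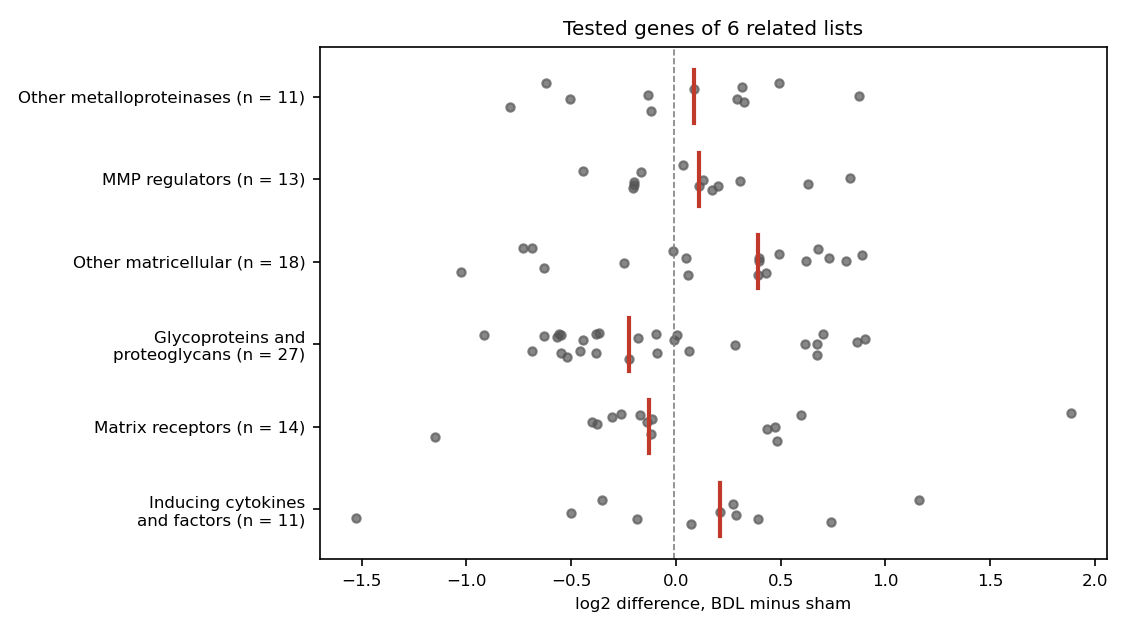
log2 difference (BDL minus sham) of each tested gene in 6 related lists; each dot is 1 gene, red bars are list medians and the dashed line is the median of all 6895 genes. Medians run from -0.22 for glycoproteins and proteoglycans to 0.39 for other matricellular genes, with dots on both sides of 0 in each list.

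Markers of cells that make these proteins were measured beside them, and their part in the results was not tested. In whole liver, fewer cells of a type and less RNA per cell cannot be told apart. Of the 9 hepatocyte markers tested, 4 were positive, with a median of -0.11. At a limma unadjusted p under 0.05, 0 were higher and 1 lower. The lower one was Ttr (-1.25, SE 0.36, limma adjusted p = 0.830), with all BDL values below all sham values. Stellate cell and myofibroblast markers, 11 on the array and none under the floor on every array, summed to 11621 to 13622 in BDL mice. In sham mice 1, 2 and 3 the sums were 17782, 14633 and 8828. Of 10 tested, 4 were positive, with a median of -0.16. At a limma unadjusted p under 0.05, 2 were higher and 0 lower, against 235 and 157 of all 6895 genes. These were Acta2 (1.14, SE 0.38, groups apart) and Reln (1.72, SE 0.71, groups overlapping), both with a limma adjusted p of 0.832. For Acta2, sham 2 (73.3) and sham 3 (23.6) were under the floor, so its size rested partly on the floor. The stellate marker with the next smallest p, Des, went the other way (-0.89, SE 0.52, groups overlapping). Markers of liver endothelial cells, also a source of Sparc, summed to 8815 to 10372 in BDL mice, against 5585, 10044 and 5078 in sham mice. Of 10 tested, 8 were positive with a median of 0.47, and 2 were higher and 0 lower at a limma unadjusted p under 0.05. Kupffer cell and macrophage markers summed to 6555 to 11867 in BDL mice and 3908 to 7933 in sham mice. Of 8 tested, 6 were positive, with a median of 0.87, and 0 had a limma unadjusted p under 0.05. Cholangiocyte markers, 6 genes with Cldn7 under the floor on every array, summed to 1210.0 to 1389.5 in BDL mice. In sham mice 1, 2 and 3 the sums were 1612, 904.1 and 721.6. Of 3 tested, 2 were positive, with a median of 0.32. Anxa3 alone had a limma unadjusted p under 0.05 (1.36, SE 0.26, limma adjusted p = 0.667, groups apart). Its sham signals were all under the floor, so it was tested only through its BDL signals. Lymphocyte markers summed to 3479.5 to 4170.2 in BDL mice, with Cd8a under the floor on every array. In sham mice 1, 2 and 3 the sums were 9608, 5545 and 3764. Of 6 tested, 1 was positive, with a median of -0.52, and 1 was lower at a limma unadjusted p under 0.05. Sham 1, the array with raised low signals, had the highest stellate, cholangiocyte, platelet and lymphocyte sums. The neutrophil sum without Lcn2 was also highest on sham 1.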

How the data were processed

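Liver cRNA (20 µg) was hybridized to U74Av2 arrays. The deposited intensity values are linear, 1 for each probe set on an array, and were made by the authors with GeneChip software 3.1 and version 4.0 of MicroArray Suite, per the series design text in the labels. How backgrounds were handled and the scaling target are not stated; the direction is plain from the values and no centring is seen (column medians 432 to 628). No detection calls were used. The arrays were kept as scaled. Of 12488 probe sets, 66 controls and 2880 above the floor on fewer than 3 arrays were left out. BDL minus sham was tested on log2 signals with limma 3.58.1 in R 4.3.3 (lmFit, eBayes, 4 residual and 4.67 prior degrees of freedom) with Benjamini-Hochberg adjustment over 9542 probe sets; SE and 95% intervals are limma's moderated ones. The floor understates differences of dim probe sets and narrows their spread.

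Names followed the platform annotation, with symbols brought up to date through gene identifiers of RefSeq on GRCm38.p6: 10833 probe sets had 1 symbol, 396 several and 1193 none. Every member probe set is reported. Of other gene lists, up to 3 tested genes with the smallest p are named. Cell markers are given as summed signals over each gene's brightest probe set, with counts of tested genes. Some markers with a limma unadjusted p under 0.05 are named, and also Des, a stellate marker that did not reach it. The members and lists were chosen with earlier results of these data known. The fit was tested on simulated data. Alternatives covered normalization, floor, filter, variance model, array weights, each array left out and a replicate block. Each array holds 1 mouse, and the number of arrays limits the precision. The labels name no batch.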

Additional observations from a re-analysis of the deposited data

How the results depend on the processing

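Under 16 alternatives, 0 member probe sets passed the adjusted threshold (lowest limma adjusted p 0.207, for the Pald1/Thbs1 probe set with array weights). Of 154 recomputed member differences, 144 kept their sign and 10 turned. Over arrays left out, Timp1 ran from -0.63 to 0.36, Timp2 (160116_at) from -0.15 to 0.29 and Mmp14 from -0.032 to 0.33. Mmp14 was -0.047 with array weights. With the replicate number as a block, Timp2 (160116_at) was -0.28 and Mmp2 (161509_at) 0.12, 0 probe sets passed, and 1 of the 10 member probe sets had an unadjusted p under 0.05. The block leaves 2 shared numbers, 1 and 3, whose deviations correlated at 0.21 and 0.25, and nothing in the labels says that a number marks a pair. Timp2 (93507_at), Timp3, Mmp11, Sparc, Fn1 and the Pald1/Thbs1 probe set kept their sign under every alternative in which they were tested. Timp3 was 0.11 with array weights. The stricter filter left out Timp2 (160116_at), Timp3, Mmp2 and Mmp11, and the 40th percentile floor left out Timp2 (160116_at) and Mmp2. Over all probe sets the count past the threshold was 3 with no filter, none of them a member, and 0 otherwise; the cause was not tested. The count at an unadjusted p under 0.05, 552 over 9542 probe sets, was 1176 without sham 3, 308 without BDL 3 and 1023 with array weights. The median of the member probe sets ran from -0.20 to 0.17 over arrays left out. With signals under the floor on most arrays, differences of Mmp9 were not detectable here.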
